A study of Sus scrofa with 22 samples.

Results

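miR-122, miR-192 and miR-194a, miRNAs known chiefly from liver and gut, were followed through 22 libraries of pig subcutaneous fat. They were chosen by name and make up 3 of the 250 mature miRNA names in the count tables, and the name miR-194 without a letter had no row in the tables used here. All libraries came from female pigs of 6 months, and the labels class the fat as thick or thin without giving a thickness. Hampshire gave 5 libraries of thick and 2 of thin fat, Pietrain 4 of thick and 3 of thin fat, and Large White 4 of thick and 4 of thin fat. No treatment, transgene or selected genotype is given for any group. Each breed has a count table of its own, so breed and table cannot be told apart in any comparison of breeds.

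miR-122 is the most abundant miRNA of hepatocytes, where it acts in cholesterol and lipid metabolism, and liver damage releases it into blood. miR-192 and miR-194 are enriched in liver, kidney and intestinal epithelium, and they are made from shared primary transcripts. miR-215 is a close relative of miR-192 and is encoded beside another copy of miR-194. In the RefSeq annotation of the pig assembly Sscrofa11.1, MIR194A and MIR192 were neighbours, as were MIR215 and MIR194B, whereas MIR122 lay apart, next to NEDD4L.

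The most frequent sequences under each name are shown because the miRNAs differ in their seeds and ends. Bases 2 to 8, the seed that pairs with target mRNAs, are in capitals, and each sequence is the mature RNA as the count tables list it.
miR-122, 21 nt: uGGAGUGUgacaaugguguuu
miR-122, 22 nt: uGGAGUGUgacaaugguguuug
miR-192, starting at base 1: cUGACCUAugaauugacagccau
miR-192, starting at base 2: uGACCUAUgaauugacagccagu
miR-215: aUGACCUAugaauugacagcc
miR-194a, 21 nt: uGUAACAGcaacuccaugugg
miR-194a, 22 nt: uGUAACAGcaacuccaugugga
miR-194a, 23 nt: uGUAACAGcaacuccauguggaa
miR-122-3p, the other arm of the miR-122 hairpin: aACGCCAUuaucacacuaaau
The seed of the miR-192 form that starts at base 1 and that of the miR-215 form are the same 7 bases, and the other miR-192 form has a seed shifted by 1 base. The miR-215 form shown was listed in 1 library, Pietrain thin fat replicate 2, and differs from a listed miR-192 sequence in its first base alone.

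Libraries held between 430712 and 3136842 reads with a miRNA name. The summed level of 9 adipocyte miRNAs, with miR-148a-3p and miR-143-3p in the lead, was 245913 to 586916 CPM per library, CPM being the count scaled to the library's number of named reads after TMM adjustment and given per 1e6 reads. miR-205, the measured marker of skin, was between 0 and 95.2 CPM. The sign of the authors' deposited fold changes ran against the thick-minus-thin difference of the counts, with r over sequences of -0.819 in Hampshire and -0.777 in Pietrain but -0.379 in Large White. With replicate 1 of thick and replicate 1 of thin Large White fat exchanged it was -0.715. The Hampshire and Pietrain count tables list their thin fat columns before their thick ones. The Large White table has thick replicate 1 among the thin columns and thin replicate 1 among the thick ones. The class labels of these libraries are therefore in doubt, and the fold changes between fat classes in Large White are also given without them. Group means, SDs, the order of the groups and flagged values keep the labels as given.

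miR-122 was above 0 in 20 of 22 libraries and spread over a 4245-fold range among them. In Hampshire thick fat it stood at 20.1, 1565, 12565, 3354 and 3379 CPM in replicates 1 to 5, against 21393 and 433 CPM in Hampshire thin fat. Both fat classes of Hampshire thus held a rich and a poor library. In Pietrain it stood at 1379, 1951, 0 and 298 CPM in thick fat, against 387, 7803 and 5.04 CPM in thin fat. In Large White it stood at 0, 1107, 3675 and 588 CPM in thick fat, against 63.6, 611, 164 and 29.3 CPM in thin fat. The groups of every breed overlapped.

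**Figure D1:**
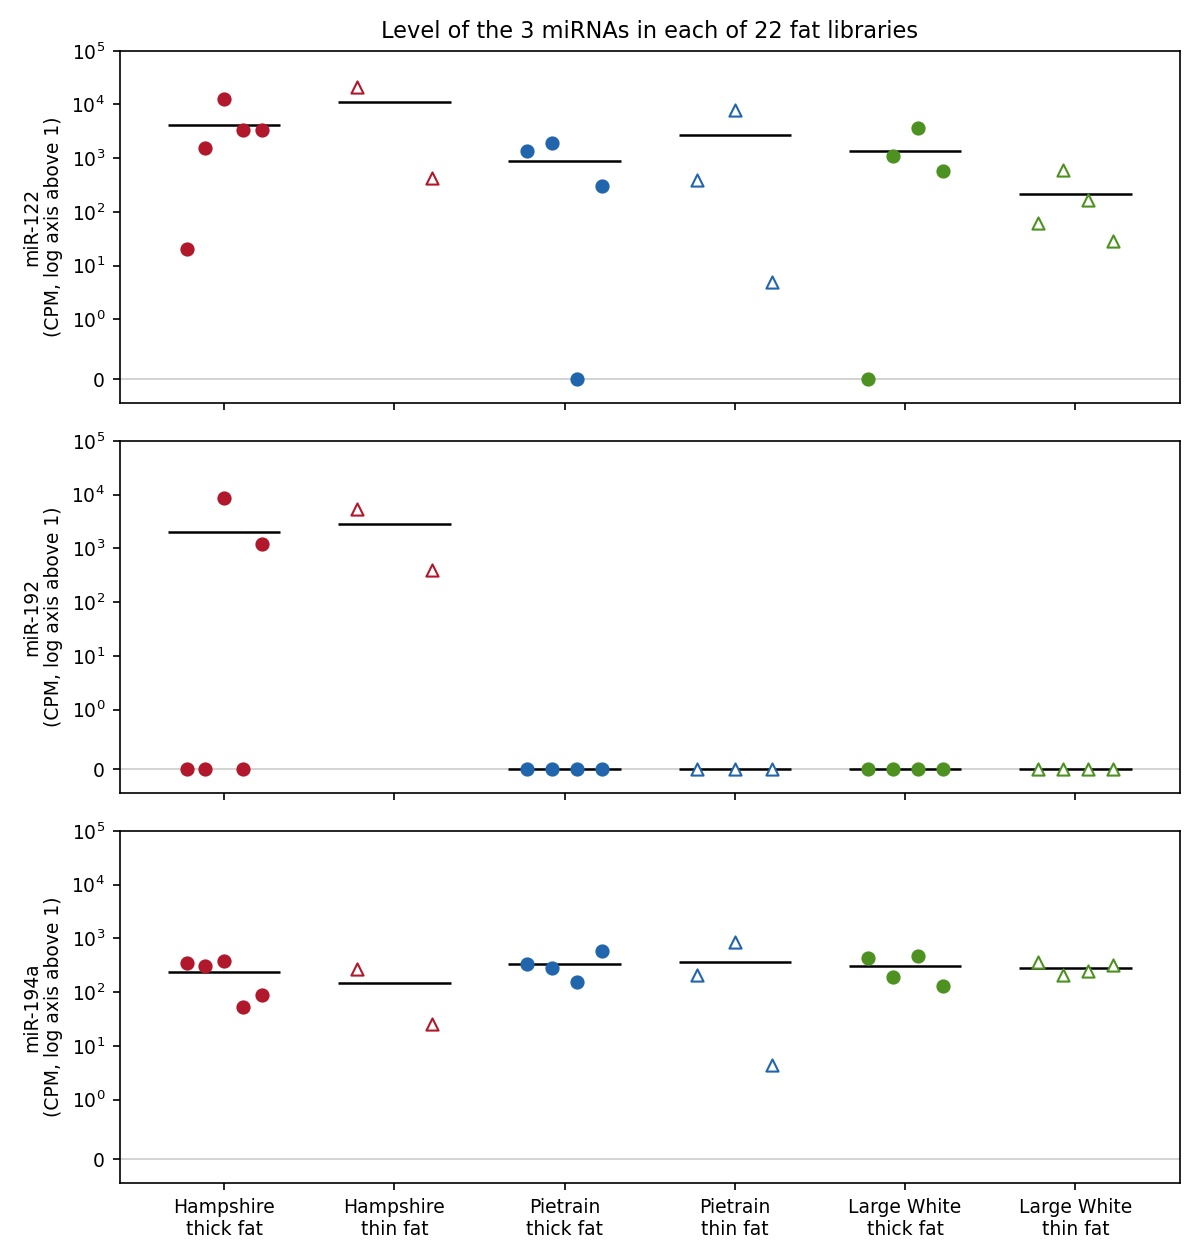
CPM of miR-122, miR-192 and miR-194a in each of the 22 libraries on a log axis, by breed and fat class, with libraries at 0 drawn at the foot of the axis. miR-122 runs from 0 to 21393 CPM, miR-192 has values above 0 in 4 Hampshire libraries, and miR-194a stays between 4.41 and 853 CPM.

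A few libraries carried most of the miR-122. Hampshire thin fat replicate 1 held 35.2% of the CPM summed over 22 libraries, and with Hampshire thick fat replicate 3 the share was 55.9%. Adding Pietrain thin fat replicate 2 and Large White thick fat replicate 3 brought it to 74.8%. In the richest library miR-122 made up 1.68% of named reads (exact 95% binomial interval 1.66 to 1.71), and in the next 1.43% (1.41 to 1.45). It ranked 16th of 163 names above 0 in the first of these and 15th of 186 in the other. In the poorest library above 0, Pietrain thin fat replicate 3, it had 8 reads and ranked 158th of 173. These intervals cover counting error only, because PCR copies of 1 molecule were not marked and may be counted more than once. In whole tissue, fewer cells of a type and less RNA per cell cannot be told apart.

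miR-122 averaged 4177 ± 4893 CPM (SD, n = 5) in Hampshire thick fat and 10913 ± 14822 CPM (n = 2) in Hampshire thin fat. It averaged 907 ± 914 CPM (n = 4) in Pietrain thick fat and 2732 ± 4396 CPM (n = 3) in Pietrain thin fat, and 1343 ± 1619 CPM (n = 4) in Large White thick fat and 217 ± 269 CPM (n = 4) in Large White thin fat. From the highest mean to the lowest the order was Hampshire thin, Hampshire thick, Pietrain thin, Large White thick, Pietrain thick and Large White thin fat. No neighbours in this order differed by more than the larger of their SDs.

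Thick and thin fat were compared for miR-122 by the quasi-likelihood test of edgeR, fitted over 206 names that passed a filter on low counts. Over all breeds the log2 fold change, thick minus thin, was -0.11 ± 1.22 (SE; 95% interval -2.69 to 2.46; adjusted p = 1.00). Within breeds it was -1.39 ± 2.18 in Hampshire, -1.59 ± 2.10 in Pietrain and 2.63 ± 2.07 in Large White, and the edgeR adjusted p was 0.933, 1 and 1 in that order. Without the 2 Large White libraries of doubtful label it was 2.74 in Large White and -0.08 over all breeds, and with them exchanged 2.75 in Large White and -0.07 over all breeds. A test for a fat difference that varies with breed gave an edgeR adjusted p of 0.984, and of 1 without these libraries or with them exchanged, and it called 0 of 206 names (0%), with 11 at an unadjusted p under 0.05, 2 (0.971%) by DESeq2 and 0 by limma-voom. The sign in Hampshire turned to 3.25 without thin fat replicate 1, and that in Pietrain to 2.21 without thin fat replicate 2, both without a call. Each fat comparison called 0 of 206 names (0%) in edgeR, against 12 names at an unadjusted p under 0.05 over all breeds, 17 in Hampshire, 8 in Pietrain and 5 in Large White, the last being 2 without the libraries of doubtful label and 1 with them exchanged. DESeq2 called 6 (2.91%), 9 (4.37%), 3 (1.46%) and 4 (1.94%) names in the same comparisons and limma-voom 0 in each, and miR-122 was not among these DESeq2 calls. An exact permutation of the labels within breeds, over 51450 arrangements, gave a two-sided p of 0.868 for a mean difference of -0.30 in log2(CPM + 1). That difference was 0.47 (exact permutation p = 0.786) without the Large White libraries of doubtful label and 0.70 (exact permutation p = 0.699) with them exchanged.

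The intervals of these fat comparisons were wide. In Hampshire the interval ran from -5.99 to 3.22 on the log2 scale, in Pietrain from -6.01 to 2.83 and in Large White from -1.73 to 6.99. With these libraries a true difference of miR-122 anywhere within those bounds could not be told from none.

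Between breeds, miR-122 averaged 6101 ± 7961 CPM in Hampshire (SD, n = 7), 1689 ± 2795 in Pietrain (n = 7) and 780 ± 1232 in Large White (n = 8). The Hampshire minus Large White log2 fold change was 3.65 ± 1.57 (SE; 95% interval 0.33 to 6.96), with an edgeR p of 0.0331 and an adjusted p of 0.108. That comparison called 36 of 206 names (17.5%) in edgeR, 19 higher and 17 lower in Hampshire, and miR-122 was not among them. DESeq2, which called 57 of 206 (27.7%), gave 3.61 with an adjusted p of 0.0251. Over all alternatives that left out a library the edgeR value lay between 1.25, without Hampshire thin fat replicate 1, and 4.32. An exact permutation test of the 7 Hampshire and 8 Large White libraries gave a two-sided p of 0.0876. The Hampshire minus Pietrain value was 2.10 ± 1.59 (95% interval -1.24 to 5.45; edgeR adjusted p = 0.387), in a comparison that called 39 of 206 names (18.9%), and it was -0.26 without Hampshire thin fat replicate 1. The Pietrain minus Large White value was 1.55 ± 1.45 (95% interval -1.50 to 4.59; edgeR adjusted p = 0.813), in a comparison that called 0 of 206 (0%), with 25 at an unadjusted p under 0.05, 7 (3.4%) by DESeq2 and 0 by limma-voom. The value was -0.35 without Pietrain thin fat replicate 2. Without Hampshire thin fat replicate 2, Hampshire minus Large White and Hampshire minus Pietrain each called 22 names in edgeR.

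The split of the breed calls moved with the scaling. Under scaling by library totals the median of all names shifted to -0.29 for Hampshire minus Large White, with 13 higher and 32 lower, and to -0.24 for Hampshire minus Pietrain, with 15 higher and 26 lower. Upper quartile scaling gave medians of -0.21 and -0.29 and splits of 14 higher and 26 lower and of 14 higher and 25 lower. Under the main scaling the medians were -0.02 and -0.04. The direction of miR-122 was higher in Hampshire under each of these scalings.

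**Figure D2:**
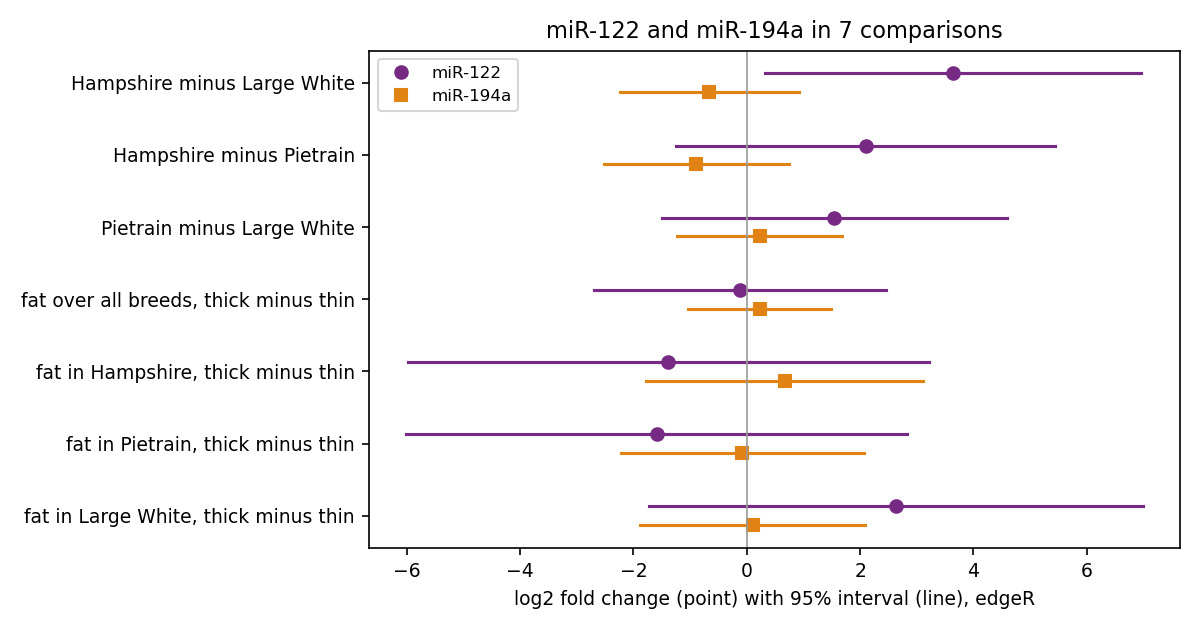
log2 fold changes of miR-122 and miR-194a with 95% intervals, from the edgeR fit over 22 libraries, for the fat comparisons (thick minus thin) and the breed comparisons. Every interval includes 0 except that of miR-122 in Hampshire minus Large White, 0.33 to 6.96.

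The miR-122 reads came in 125 distinct sequences, and the 4 leading ones share their start and differ in their 3′ ends. The 21-nt form held 28.4% of 100122 reads, the 22-nt form 24.3%, and the 23-nt forms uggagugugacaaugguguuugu and uggagugugacaaugguguuuga 15.0% and 12.0%. In the 17 libraries with at least 100 reads of these 4 forms, the 21-nt form took a median of 35.4% of them. It was between 29.3% and 38.1% in 15 libraries, and it stood at 50.1% (exact 95% interval 48.9 to 51.3) in Large White thick fat replicate 3 and at 51.2% (44.7 to 57.7) in Pietrain thick fat replicate 4. No difference in the share of a miR-122 form between breeds passed the exact two-sided permutation tests. The smallest p of the 12 miR-122 comparisons was 0.169 after adjustment over the 21 comparisons of miR-122 and miR-194a forms. Without Hampshire thin fat replicate 2, the share of the form ending in UGA was 2.96 points higher in Hampshire than in Large White (exact permutation, adjusted p = 0.0390).

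The other arm, miR-122-3p, was listed above 0 in 5 libraries. It had 40, 6 and 18 reads in Hampshire thick fat replicates 3 and 5 and thin fat replicate 1, and 13 and 8 reads in Pietrain thick fat replicate 2 and thin fat replicate 2. In these libraries miR-122 had 447 to 1533 reads for each read of miR-122-3p. Large White thick fat replicate 3 had 9318 miR-122 reads and was listed at 0 for miR-122-3p. In edgeR, miR-122-3p was called higher in Hampshire than in Large White (adjusted p = 0.0360), but with every Large White library listed at 0 it has no fold.

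miR-192 was listed above 0 in 4 libraries, all of them Hampshire. It had 8676 and 1216 CPM in thick fat replicates 3 and 5 and was listed at 0 in thick fat replicates 1, 2 and 4, against 5336 and 393 CPM in the 2 thin fat libraries. Its reads there were 22838 and 964 in thick fat, against 5666 and 516 in thin fat. It ranked 22nd, 48th, 27th and 68th among the names above 0 in those 4 libraries. No row of the Pietrain and Large White tables used here carries the name. The smallest count above 0 in every library was 6, so a listed 0 may stand for up to 5 reads of each sequence.

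Hampshire thick fat replicates 4 and 5 were alike in miR-122 and unlike in miR-192. Replicate 4 had 2742 miR-122 reads and a listed 0 for miR-192, and replicate 5 had 2679 and 964. Where both were read, miR-192 had 0.691 and 0.360 reads for each miR-122 read in thick fat replicates 3 and 5, against 0.249 and 0.908 in thin fat replicates 1 and 2. Fisher's exact test of 4 of 7 Hampshire libraries against 0 of 15 others gave a two-sided p of 0.00478. The pattern was known when this test was chosen, so the p is a description. miR-192 also passed the count filter of edgeR through Hampshire libraries alone, so its edgeR p-values are descriptions too. In edgeR the adjusted p was 0.0396 for Hampshire minus Large White and 0.0600 for Hampshire minus Pietrain, but over the alternatives these ran from 3.47e-13 to 0.0966 and from 1.88e-12 to 0.118.

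The miR-192 sequences started at either of 2 neighbouring bases. Of its reads, 56.8% (exact 95% interval 56.2 to 57.5) and 64.1% (61.0 to 67.1) began at base 1 in thick fat replicates 3 and 5, against 61.6% (60.3 to 62.9) and 62.2% (57.9 to 66.4) in thin fat replicates 1 and 2. The starts went with different ends. Reads from base 1 most often ended in gccau, in 31.8% of cases, and reads from base 2 most often in gccagu, in 36.9%.

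Rows named miR-215 came from 2 libraries that lack miR-192. Pietrain thin fat replicate 2 had 116 reads in 9 sequences, and Large White thin fat replicate 3 had 7 reads of 1 sequence. Positions are numbered along the miR-192 form that starts at base 1, with 1 at its 5′ end, and this numbering is kept for the form that starts at base 2. Of the 116 reads, 89 differed from a listed miR-192 sequence by C1A alone, 18 by C20A and 9 by C20U. The Large White sequence, augaccuaugaauugacagaca, differed from the 21-nt miR-192 form by C1A and C20A over the bases they share. No listed miR-192 sequence was 1 change away from it. The miR-215 sequence shown above had 26 reads, as had the form that continues it to 23 nt, and each carried C1A alone. Among Hampshire miR-192 reads of the same core, 0 of 12980 and 0 of 618 in thick fat replicates 3 and 5 carried C1A, against 0 of 3491 and 0 of 321 in thin fat replicates 1 and 2. In Pietrain thin fat replicate 2, 11 of 100 reads of this core had the base 1 of miR-192 and were listed as miR-215. No library had rows of both names, 4 had miR-192, 2 had miR-215 and 16 had neither. How names were assigned to sequences is not given in the sources used here. All rows were therefore also searched, whatever their name, for the stretch that the miR-192 and miR-215 sequences shown above share. Rows with it had reads only in the 4 libraries with miR-192 and the 2 with miR-215. In the 16 others no listed row of any name held this stretch.

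miR-194a, encoded beside miR-192, was above 0 in all 22 libraries and varied far less than miR-122. It stood at 347, 308, 382, 52.6 and 88.3 CPM in Hampshire thick fat, against 272 and 25.1 CPM in Hampshire thin fat. In Pietrain it stood at 338, 277, 155 and 579 CPM in thick fat, against 211, 853 and 4.41 CPM in thin fat. In Large White it stood at 434, 190, 471 and 132 CPM in thick fat, against 368, 208, 251 and 312 CPM in thin fat. The groups of every breed overlapped, and the lowest value came from the Pietrain library that was also poorest in miR-122 among those above 0. Over the 22 libraries the SD was 0.682 of the mean for miR-194a and 1.86 of the mean for miR-122.

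By breed, miR-194a averaged 211 ± 150 CPM in Hampshire (SD, n = 7), 345 ± 285 in Pietrain (n = 7) and 296 ± 121 in Large White (n = 8). Its edgeR log2 fold change was -0.66 ± 0.75 for Hampshire minus Large White (adjusted p = 0.619), -0.89 ± 0.78 for Hampshire minus Pietrain (adjusted p = 0.463) and 0.23 ± 0.60 for thick minus thin over all breeds (95% interval -1.03 to 1.49; adjusted p = 1.00). Within breeds the fat values were 0.67 ± 1.16 in Hampshire, -0.08 ± 1.02 in Pietrain and 0.11 ± 0.94 in Large White, none of them called by edgeR. The Large White value was 0.040 without the 2 libraries of doubtful label and -0.053 with them exchanged. miR-194a was read whether or not miR-192 was listed. In the 4 libraries with miR-192 there were 13.8 to 22.7 miR-192 reads for each miR-194a read, while the 18 libraries listed at 0 for miR-192 held between 7 and 1340 miR-194a reads.

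The 3′ ends of miR-194a differed by breed. In the 18 libraries with at least 100 reads of its 3 main forms, the 21-nt form took 52.5% ± 7.03 in Hampshire (SD, n = 4, range 46.0 to 62.2), 26.3% ± 2.87 in Pietrain (n = 6, range 21.7 to 30.1) and 28.9% ± 2.52 in Large White (n = 8, range 25.0 to 31.8). The Hampshire range lay above the others without overlap. The 22-nt form took 35.4% ± 4.53, 47.8% ± 2.35 and 45.5% ± 3.12 and the 23-nt form 12.1% ± 2.68, 25.9% ± 2.77 and 25.5% ± 2.13 in Hampshire, Pietrain and Large White. For the 21-nt form the difference was 23.6 points for Hampshire minus Large White (exact two-sided permutation p = 0.00404) and 26.2 points for Hampshire minus Pietrain (p = 0.00952), each the smallest p that these numbers of libraries allow. All 6 comparisons of Hampshire with another breed had an adjusted p of 0.0333 over 21 exact permutation tests, and Pietrain minus Large White, at -2.62 points, had 0.203.

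This result was chosen after the data were seen, and the 3 shares of a library sum to 100%. Leaving out a library moved the 21-nt difference between 20.4 and 25.8 points against Large White and between 23.0 and 28.4 points against Pietrain. The adjusted p was then 0.0333 to 0.0848. For all 3 forms it was no longer under 0.05 against Large White without any 1 of the 4 Hampshire libraries, or against Pietrain without any 1 of the 10 Hampshire or Pietrain libraries. For the 22-nt form the call against Large White was also lost without any 1 of the 6 Pietrain libraries, which changed only the adjustment. With at least 200 reads required, the differences were 25.8 points (exact permutation, adjusted p = 0.0848) and 28.2 points (adjusted p = 0.125). Over all sequences the mean read length was also shorter in Hampshire, at 21.79 ± 0.0586 nt (SD, n = 7) against 21.88 ± 0.0397 in Pietrain (n = 7) and 21.87 ± 0.0378 in Large White (n = 8). The ranges of the breeds overlapped, and the part of read length in the miR-194a result was not tested. End forms were compared between breeds for miR-122 and miR-194a only. Whether other miRNAs also set Hampshire apart in this way was not tested.

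**Figure D3:**
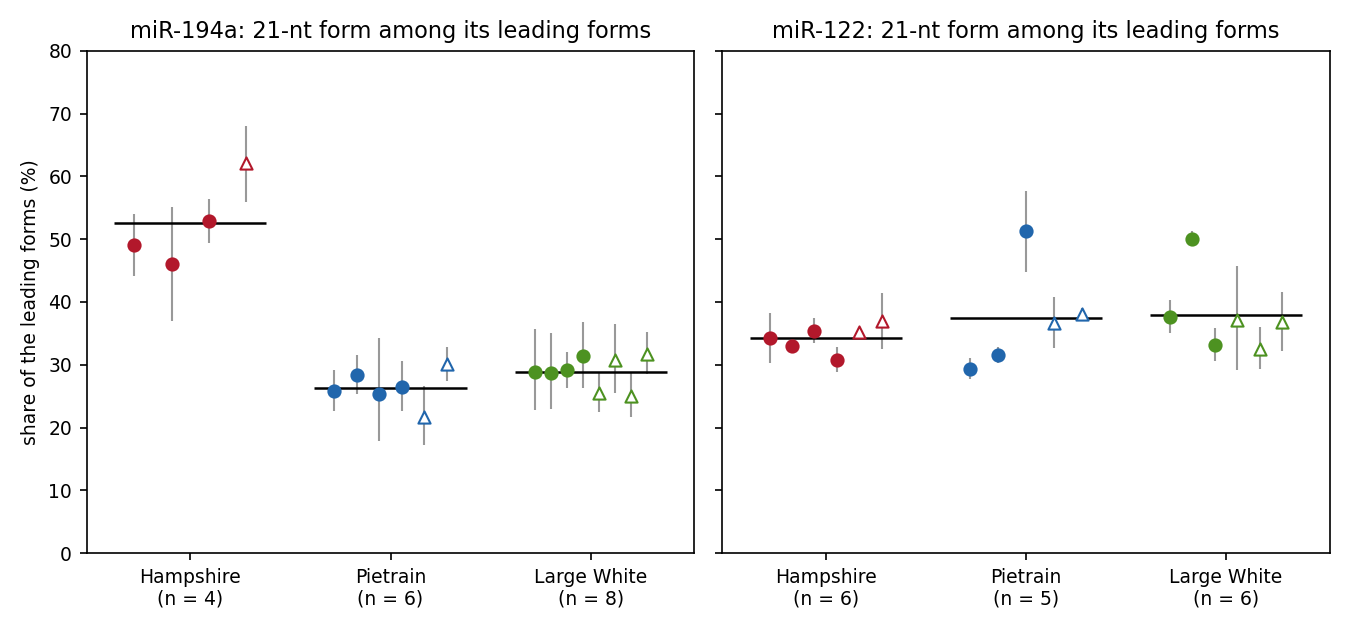
Share in percent of the 21-nt form among the main forms of miR-122 and of miR-194a, 1 point per library with at least 100 reads of these forms, by breed. The 21-nt form of miR-194a lies at 46.0% to 62.2% in Hampshire and at or below 31.8% in the other breeds, whereas that of miR-122 overlaps between breeds.

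The association between miR-122 and miR-192 was measured within Hampshire, the breed with both. Over 7 libraries Spearman's rho was 0.778 (exact permutation p = 0.0571) and Pearson's r on log2(CPM + 1) was 0.616 (exact permutation p = 0.136). Without the 2 libraries farthest from the median of miR-122, rho was 0.872 (exact p = 0.1) and r was 0.814 (exact p = 0.15), which over 5 libraries is below the number at which a relation can be read. Leaving out single libraries gave a rho between 0.638 and 0.880, with an exact p of 0.0444 without thick fat replicate 2 or without thick fat replicate 4. Of the points, 3 share a listed 0 for miR-192.

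**Figure D4:**
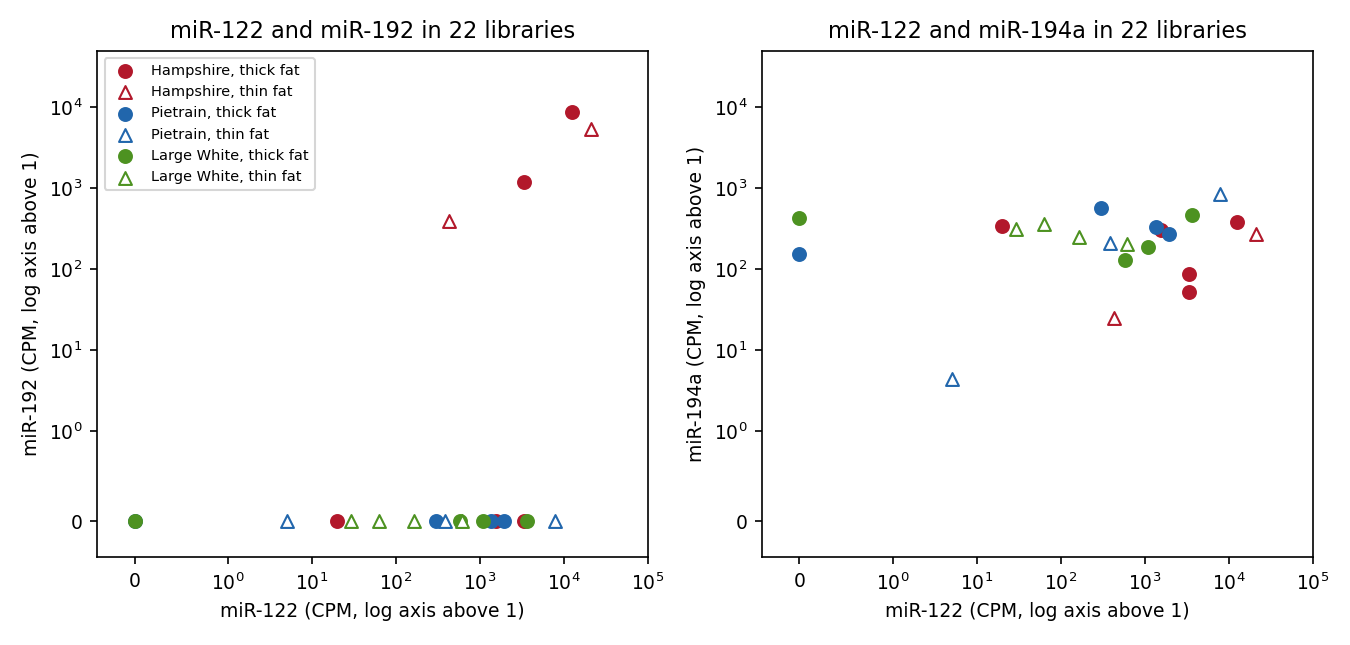
CPM of miR-192 and of miR-194a against CPM of miR-122 on log axes, 1 point per library, marked by breed and fat class, with values of 0 at the edge. The highest miR-192 values, 8676 and 5336 CPM, belong to the libraries with 12565 and 21393 CPM of miR-122, and the miR-194a points show no trend that passed the test.

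miR-194a and miR-122 had a Spearman rho of 0.185 over 22 libraries, as ranks within breeds (permutation p = 0.430, adjusted p = 0.546), and an r of 0.325 (permutation p = 0.207, adjusted p = 0.369). These values did not pass the test, and the sign of rho was not the same in every breed. The rho was 0.143 in Hampshire, 0.714 in Pietrain and -0.238 in Large White. The 2 libraries farthest from the median, each at 0 for miR-122, left r at 0.472 when removed. There were 0.0579 to 78.6 miR-122 reads for each miR-194a read across the libraries with both. This relation was 1 of 11 computed for miR-122, against the library total, the sums of 8 marker lists (the liver list without miR-122 itself), miR-192 and miR-194a, and none passed an adjusted p of 0.05 in permutation tests. For the library total rho was 0.266 (adjusted p = 0.500) and r 0.473 (permutation p = 0.0369, adjusted p = 0.313), and r was 0.0962 without the 2 farthest libraries. For the liver list rho was 0.344 and r 0.432 (permutation p = 0.0569, adjusted p = 0.313), and r was 0.594 (permutation p = 0.0195, adjusted p = 0.214) without the 2 farthest libraries. For the gut epithelium list rho was 0.255 and r 0.358. Both sums hold miR-192 and miR-194a, which are also among the 11 measures. For the red blood cell list rho was 0.115 and r 0.194, for leukocytes 0.178 and 0.149, for skeletal muscle -0.294 and -0.265, for skin -0.206 and -0.246, for endothelium 0.289 and 0.307 and for adipocytes -0.098 and -0.217.

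The liver list held 8 names in the tables, 5 of which passed the count filter: the members, miR-122-3p and miR-885-5p. By edgeR, miR-122-3p and miR-192 were called higher in Hampshire than in Large White, where 9.22% of all names were called higher, and none of the 5 was called in another comparison. miR-192 passed the filter through Hampshire libraries alone, and miR-122-3p was listed at 0 in every Large White library. These calls are therefore no test of the liver list as a whole. The median log2 fold change of the 5 is that of miR-122 itself, 3.65 for Hampshire minus Large White and 2.10 for Hampshire minus Pietrain, beside -0.02 and -0.04 over all 206 names, so it adds nothing to the value above. Beyond the members and their other arms, miR-215 reached 73.8 CPM in 1 of its 2 libraries. miR-885-5p, another liver miRNA, was above 0 in 13 libraries and at most 10.3 CPM. miR-802 and miR-483 had no row in the tables used here.

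Of 12 names of the gut epithelium list, 9 passed the filter, and miR-192 and miR-375 were called higher in Hampshire than in Large White by edgeR, beside 9.22% of all names called higher there. miR-192 is the same name as in the liver list and passed the filter through Hampshire libraries alone, so its call is no separate result. The list's median log2 fold change was 0 for Hampshire minus Large White, beside -0.02 over all names. That 0 is the value of miR-31, which was above 0 in 2 libraries, so the median measures neither a shift nor a lack of one. miR-375, known from endocrine and secretory epithelium, was above 0 in 8 libraries, at most 24.5 CPM and listed at 0 in every Large White library (edgeR adjusted p = 0.0162), so it has no fold. miR-196b-5p was present in all 22 libraries at 180 to 443 CPM. miR-200c-3p, a miRNA of epithelial cells, had a median of 22.8 CPM and reached 82.0 CPM. miR-141, which is made with it, was above 0 in 1 library at 6.85 CPM, and miR-31 in 2 libraries at up to 13.4 CPM.

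miR-429, with a median of 758 CPM, was above 0 in 18 libraries, and miR-200b in 3 of the other 4. Those 3 were Hampshire thick fat replicates 4 and 5 and Pietrain thick fat replicate 3, with 150, 70 and 343 miR-200b reads. No library had rows of both names, the arrangement also seen for miR-192 and miR-215.

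Of 24 tested markers of other cell types, edgeR called 6 (25%) in Hampshire minus Pietrain, beside 18.9% of all names, and 2 (8.33%) in Hampshire minus Large White, beside 17.5%. In Hampshire minus Pietrain, miR-144 was called higher and miR-486 lower in Hampshire, of 3 tested red blood cell names. The other, miR-451, was above 0 in all 22 libraries and was not called (edgeR adjusted p = 0.361). In the same comparison miR-223 of 5 leukocyte names and miR-499-5p of 4 skeletal muscle names were called higher. miR-144 was above 0 in 10 libraries, at most 64.8 CPM, and miR-223 in 9, at most 30.3 CPM, so these 2 calls rest on values near the floor. Of 9 adipocyte names, miR-148a-3p was called higher and miR-103 lower in Hampshire than in each other breed. Neither the 2 endothelial names nor miR-205 was called by edgeR in any comparison. The summed level ran from 355 to 1937 CPM for red blood cells, from 396 to 1745 CPM for leukocytes, from 262 to 2462 CPM for skeletal muscle and from 31899 to 85947 CPM for endothelium, and their part in the miR-122 levels was not tested beyond the relations above.

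The names most like miR-122 were found by Spearman's rho of ranks within breeds over 22 libraries, among 135 names above 0 in at least 18 of them. miR-196a led with a rho of 0.766 (permutation p = 0.00016, adjusted p = 0.0216), and it was 0.643 in Hampshire, 0.893 in Pietrain and 0.762 in Large White. Its level ran from 15.2 to 370 CPM with a median of 204. miR-676-3p followed with a rho of 0.710 (permutation test, adjusted p = 0.0499), then miR-9843-3p with 0.525, miR-95 with 0.483 and miR-196b-5p with 0.476, none of these last 3 past an adjusted p of 0.05. The least like were miR-378-5p with -0.674 and miR-29a with -0.658 (permutation test, adjusted p = 0.0712 each) and miR-378 with -0.467. miR-378 and its other arm are known from adipocytes, where they act in lipid metabolism and mitochondria. These libraries share depth and scaling: with CPM at library totals the rho of miR-196a was 0.666 (adjusted p = 0.139) and that of miR-676-3p 0.556 (adjusted p = 0.328), and without the 2 libraries at 0 for miR-122 they were 0.698 (adjusted p = 0.250) and 0.619 (adjusted p = 0.266), all by permutation.

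**Figure D5:**
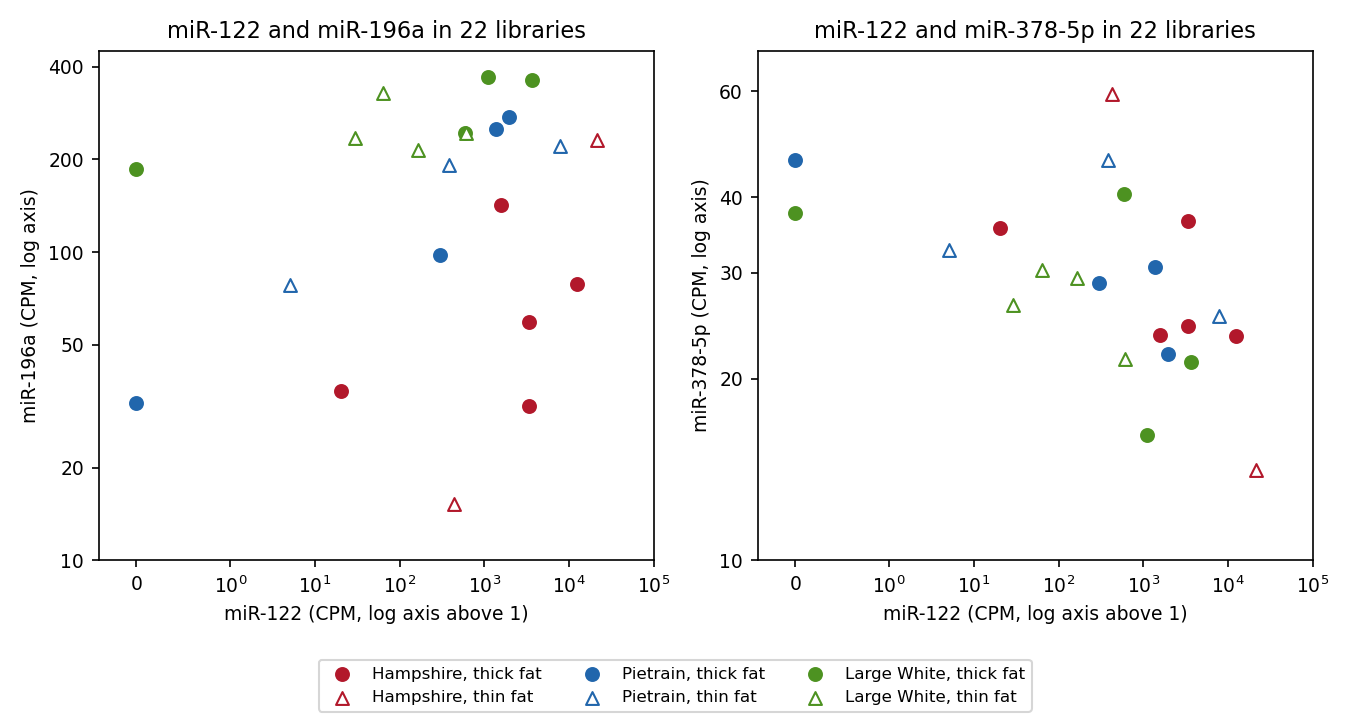
CPM of miR-196a and miR-378-5p against miR-122 on log axes, 1 point per library, marked by breed. miR-196a, with the highest rho of 135 names at 0.766, goes up with miR-122, and miR-378-5p, with the lowest at -0.674, goes down.

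The authors' deposited table compares fat classes per sequence within each breed, and its sign was found from the counts to run thin minus thick. In the authors' deposited table for Hampshire, 87 of 112 miR-122 sequences had a positive log2 fold change, and the smallest adjusted p was 0.973. In that for Pietrain, 65 of 71 were positive, and the smallest adjusted p was 0.473. In that for Large White, 0 of 46 were positive, with a median of -3.13, a smallest p of 0.000536 and a smallest adjusted p of 1.00. For the 21-nt form the authors' deposited table gave 1.27 ± 1.85 (SE) in Hampshire, 1.69 ± 2.13 in Pietrain and -3.17 ± 1.60 in Large White. An adjusted p was given for 102 of the 112 miR-122 sequences in Hampshire, 34 of 71 in Pietrain and 44 of 46 in Large White. Sequences of 1 name are not independent of each other. Of the 94 miR-192 sequences in Hampshire, 62 had an adjusted p in the authors' deposited table, none of them under 0.05. The 2 miR-192 forms shown above, with mean normalized signals of 475 and 384, had no p there. No miR-194a sequence had an adjusted p under 0.05 in that table in any breed. Over all names, 1 of 5288 sequences in Hampshire, 89 of 4680 in Pietrain and 0 of 6735 in Large White passed there.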

How the data were processed

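Small RNA libraries were made from subcutaneous fat with a NEBNext small RNA kit and read in 36 single-end cycles, per the labels' protocols. Per the submitters' processing notes, the tools included FastQC, bcl2fastq and DESeq2, and the genome build was Sscrofa10.2. The trimmer, aligner and miRNA release are not given in the sources used here, and no coordinates are reported. The authors deposited raw counts per sequence for each breed. They also deposited 1 comparison of fat classes per breed with columns that are, per the file headers, the mean normalized signal, the log2 fold change and 2 columns treated as scores (its SE and the Wald statistic), and the p-value before and after adjustment.

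Species prefixes and "NA" marks were stripped from names and counts summed per name. Unnamed sequences (0.0480% of reads) entered neither the library sizes nor the tests. CPM used TMM library sizes. Tests were the quasi-likelihood test of edgeR 4.0.16 (R 4.3.3, limma 3.58.1; minimum count 10, 6 group means, Benjamini-Hochberg threshold 0.05), with DESeq2 1.42.0, limma-voom, other scalings and filters, and leaving out each library as alternatives, and exact or 100000-draw permutations (scipy 1.17.1; pseudocount 1 CPM). Relations across breeds used permutations within breeds. The edgeR fit was run on simulated counts with known changes, for Hampshire minus Large White and for fat over all breeds, and the outcome is not reported here. No name was simulated with a mean of 0 in a whole breed, so the simulation does not cover calls such as those of miR-192, miR-122-3p and miR-375. The members, the 8 marker lists and the tests were chosen with earlier results of these data known. Named miRNAs are the members, the measured names of the liver and gut lists, and the 5 most and 3 least like miR-122. Shares of 3′ end forms, the miR-194a relation and the alternatives for likeness were chosen after seeing the data. The labels do not say whether libraries came from separate litters or runs, so p-values measure only the spread between libraries.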

Additional observations from a re-analysis of the deposited data

Results flagged for a closer look

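In the 22 groups of 4 or 5 libraries that were tested for a library far from the others, 4 values stood apart. Chance alone flags about 1 group in 20 where values are normally distributed and groups are separate. CPM of miR-122 and miR-192 has a few very high values, and the shares of the forms in a library depend on each other. That rate may therefore not hold here. Hampshire thick fat replicate 3 had 12565 CPM of miR-122, against 3379 CPM in the next library of its group, and the gap was 0.732 of the group's range. The same library had 8676 CPM of miR-192, against 1216 CPM in the next, a gap of 0.860 of the range. Large White thick fat replicate 4 had a 21-nt share of miR-194a of 31.4%, against 29.2% in the next, and Large White thick fat replicate 2 a 22-nt share of 48.7%, against 44.6% in the next. The last 2 gaps were within the exact 95% intervals of the shares.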

How the results depend on the processing

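No paired analysis was possible because the replicate numbers follow accession order and pair no libraries across groups. Over the alternatives, 1200 values were kept, 47 changed sign, 58 lost a call, 4 gained one and 25 moved. A kept difference or relation had the same direction and side of the threshold, and a kept p-value the same side. A count of called names was kept if it equalled the main count or lay within a set ratio of it, and otherwise it moved. The cause of these changes was not tested for any value. For miR-122, thick minus thin over all breeds turned to 0.10 with library totals and 0.28 with limma-voom, and thick minus thin in Pietrain to 0.29 with limma-voom. Hampshire minus Large White passed the threshold with DESeq2, at 3.61 (adjusted p = 0.0251). For miR-194a, thick minus thin in Pietrain turned to 0.10 with upper quartile scaling, 0.033 with library totals and 1.59 with limma-voom, in Large White to -0.25 with limma-voom and -0.053 with the doubtful labels exchanged, and Pietrain minus Large White to -0.54 with limma-voom. The exact permutation value for miR-122 over all breeds turned to 0.086 with a pseudocount of 10 CPM, 0.47 without the doubtful libraries and 0.70 with them exchanged.

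Counts of called names moved with DESeq2 to 57 in Hampshire minus Large White, 7 in Pietrain minus Large White, 6 for fat over all breeds, 9, 4 and 3 for fat in Hampshire, Large White and Pietrain, and 2 for the difference between breeds. Fat over all breeds gave 1 call with DESeq2 size factors and 1 with upper quartile scaling, and fat in Hampshire gave 2 with upper quartile scaling. Without the 2 libraries farthest from the median of miR-122, its rho turned to 0.132 with the skin list and 0.045 with the adipocyte list, and the rho of miR-196a was 0.698 and that of miR-676-3p 0.619, neither past the threshold. At library totals these were 0.666 and 0.556, also short of it. With at least 50 reads, the 21-nt share of miR-122 in Pietrain minus Large White turned to 0.423 points. With at least 200 reads no miR-194a difference passed: 25.8 and 28.2 points for the 21-nt form, -11.8 and -14.2 for the 22-nt form and -14.0 and -14.1 for the 23-nt form, for Hampshire minus Large White and Hampshire minus Pietrain in that order.

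Leaving out each library in turn gave these ranges. For miR-122, fat over all breeds ran from -0.53 to 1.45, fat in Hampshire from -2.42 to 3.25, fat in Pietrain from -2.29 to 2.21, Hampshire minus Pietrain from -0.26 to 4.00 and Pietrain minus Large White from -0.35 to 2.22. Its exact permutation value ran from -1.24 to 0.64. For miR-194a, fat over all breeds ran from -0.064 to 1.12, fat in Hampshire from -0.17 to 3.30, fat in Pietrain from -0.66 to 1.64, fat in Large White from -0.18 to 0.36 and Pietrain minus Large White from -0.63 to 0.52. Calls ran from 22 to 40 in Hampshire minus Large White, 22 to 43 in Hampshire minus Pietrain, 0 to 3 for fat over all breeds, 0 to 3 for fat in Hampshire and 0 to 2 for the difference between breeds. The rho of miR-122 with miR-192 in Hampshire ran from 0.638 to 0.880. In points, the 21-nt share of miR-122 ran from -5.15 to 0.33 in Hampshire minus Pietrain and from -3.97 to 1.93 in Pietrain minus Large White. In Hampshire minus Large White its 22-nt share ran from -1.16 to 0.029, its UGA share from 1.72 to 2.96 and its UGU share from -0.13 to 3.10. For miR-194a in Hampshire minus Large White the 21-nt share ran from 20.4 to 25.8, the 22-nt share from -11.8 to -8.26 and the 23-nt share from -14.0 to -12.1. In Hampshire minus Pietrain these ran from 23.0 to 28.4, from -14.1 to -10.6 and from -14.8 to -12.4, and the 23-nt share in Pietrain minus Large White from -0.28 to 1.33.

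Depth limits the low values: no count between 1 and 5 is listed. A listed 0 of miR-192, miR-215 or miR-122-3p is therefore read as at most 5 reads of each sequence, not as absence. A limit on the summed level of a name was not computed. With 2 Hampshire thin fat libraries, every fat comparison in Hampshire rests on them, and without either the other is assumed to vary like the remaining groups.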
